A study of Mus musculus with 10 samples.

Results

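The genes described here encode the matrix metalloproteases (Mmp), the membrane-bound ADAM proteases (Adam), the secreted ADAM proteases with thrombospondin repeats (Adamts) and their non-catalytic relatives (Adamtsl), the tissue inhibitors of metalloproteases (Timp), and the tolloid proteases Bmp1 and Tll1. They were chosen by gene symbol, with Mmp9 left out, and numbered 73 of the 18725 genes in the table: 20 Mmp, 23 Adam, 19 Adamts, 5 Adamtsl, 4 Timp and 2 tolloid genes. Of these, 54 had enough counts to be tested and 19 did not. RNA came from the outer sulcus of the mouse cochlea, the epithelium lateral to the organ of Corti, dissected together with the spiral ligament under it. All mice were C57BL/6J at postnatal day 10. The 5 euthyroid libraries came from pups whose mothers drank vehicle. The 5 hypothyroid libraries came from pups whose mothers, from embryonic day 17 through lactation, drank water with methimazole at 0.05%, sucrose at 5.0% and sodium perchlorate monohydrate at 1.0%. Methimazole inhibits thyroid peroxidase and perchlorate keeps iodide out of the thyroid; the pups received both through their dams, and the litter of each library is not given in the labels. The question of the series was how thyroid hormone acts on the development of the outer sulcus.

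These enzymes cut the matrix around cells and the proteins on their surface. Metalloproteases of the Mmp family cleave collagens and other matrix proteins, ADAMs release the outer parts of membrane proteins, Adamts enzymes trim proteoglycans and procollagens, and tolloids remove the C-terminal propeptide of procollagens. Nearly all are made as inactive precursors, many of them opened by furin-like convertases, and Timp proteins bind and block the active sites. In the cochlea such enzymes act in a tissue rich in type II collagen, fibrocytes and, around it, cartilage turning into bone. RNA levels say nothing of the activation of the proteins.

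Library totals ran from 19298145 to 20063961 estimated counts, and the 73 genes took 0.588% to 0.622% of the counts in euthyroid and 0.691% to 0.729% in hypothyroid libraries. Coch, Otor and Otos, known from the inner ear, together had 26552 to 33959 TPM in euthyroid and 14801 to 19128 TPM in hypothyroid libraries. TPM is a share of all transcripts, corrected for gene length. The sum hides unlike changes: Otos went from a mean of 14633 to 245 TPM and Coch from 2599 to 280 TPM. Otor had 12593.5 and 16273.5 TPM and made up most of the hypothyroid sum. Markers of root cells were lower in the hypothyroid libraries in 4 of 4 tested genes, where 34.1% of all tested genes were lower. Their summed levels were 5256 to 6253 against 2250 to 3185 TPM. One passage of the labels describes femoral head cartilage at another age; the tissue and age given here are those of the other labels. Summed levels of 4 Y-linked genes were near 0 in 1 euthyroid and 2 hypothyroid libraries, and in hypothyroid replicate 3 they lay at 127 TPM against 195 to 249.5 TPM in the remaining 6. In whole tissue, fewer cells of a type and less RNA per cell cannot be told apart.

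Fold changes below are log2 of hypothyroid minus euthyroid, from edgeR's quasi-likelihood test across 14862 genes, after scaling with trimmed mean of M-values (TMM) factors. SE is the absolute log2 fold change over the square root of the test's F statistic. A gene is called at a Benjamini-Hochberg adjusted p under 0.05. Levels per library are CPM, counts relative to the library total on the same TMM scale, and cannot be compared between genes of different length; where genes are compared, TPM is used. Values by library are in the order of replicates 1 to 5.

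Across the families the changes went both ways. Among the 54 tested genes 22 rose under hypothyroidism, 18 fell and 14 did not pass. The higher calls were 40.7% of the tested genes, where all genes gave 37.7%, and the lower calls 33.3%, where all genes gave 34.1%, so these shares lay near the background. With scaling by library sizes alone, the split moved to 32 higher and 14 lower, and with limma on TPM to 28 higher and 14 lower. The median log2 fold change was 0.05 for the tested genes and 0.04 for all genes. Changes of at least 2-fold were called upward in 10 genes (18.5%, against 9.25% of all genes) and downward in 10 (18.5%, against 7.91%). The groups did not overlap in 36 of the 54 (66.7%), against 57.9% of all genes. The families differed in how their calls fell: 11 of 17 tested Adamts genes were higher and 4 lower, whereas 3 of 13 Mmp genes were higher and 6 lower. No test was made of the difference between families.

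**Figure D1:**
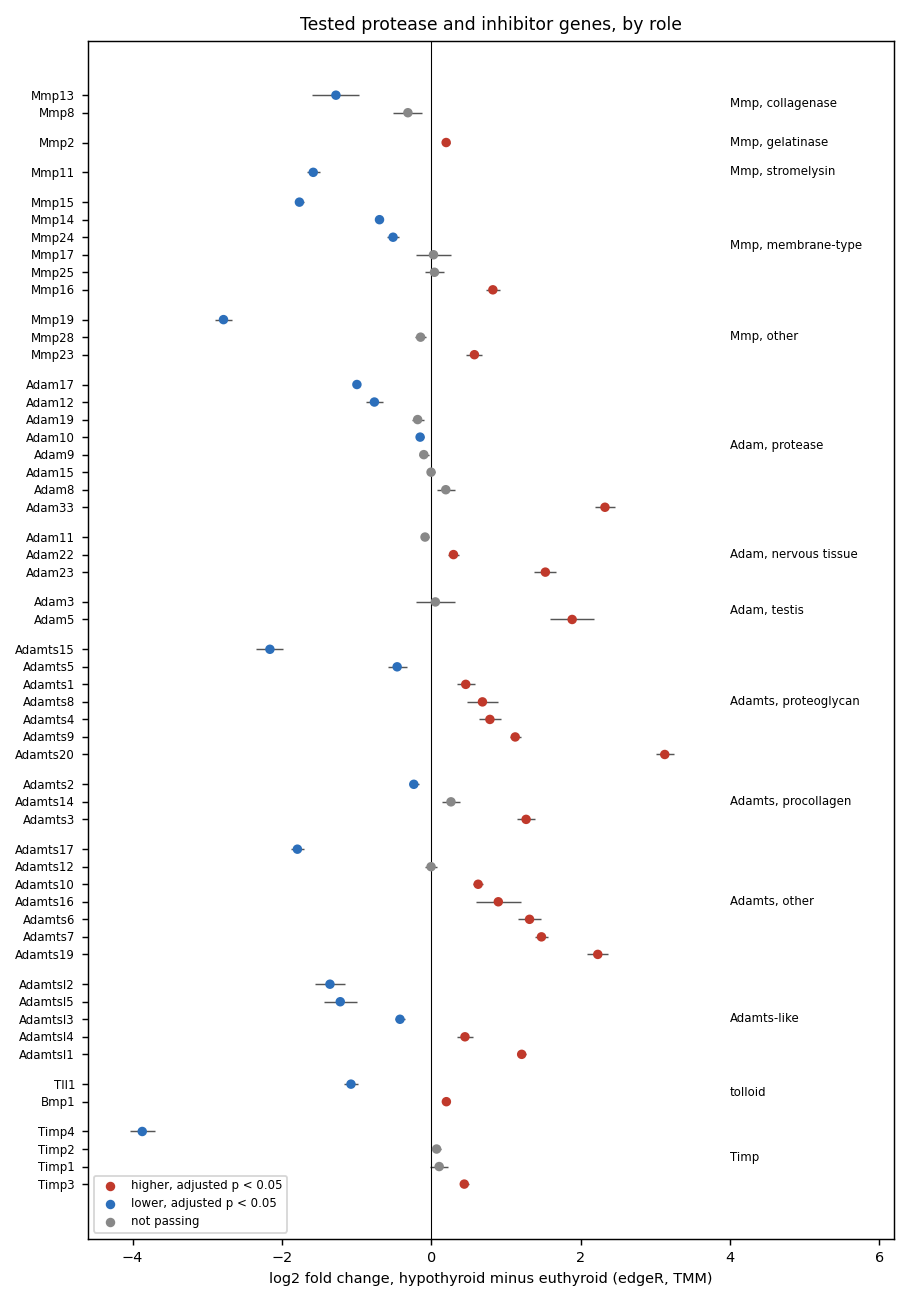
Each point is the log2 fold change (hypothyroid minus euthyroid) of 1 of the 54 tested genes, grouped by role, with a bar of 1 SE; red marks genes called higher, blue lower and grey those not passing. Timp4 lies farthest to the left at -3.87 and Adamts20 farthest to the right at 3.13, and most Adamts genes lie right of 0.

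Scaling limits what can be said of small changes. With library sizes alone the median over all genes moved from 0.04 to 0.30 on the log2 scale, and the share of higher among called genes from 52.5% to 74.7%. With limma on TPM that share was 71.4% (pseudocount 0.1) or 71.5% (pseudocount 1), and with upper quartile factors 62.5%. Calls on small changes are therefore tied to the TMM scale. With library sizes alone 13 of the 54 calls differed: Timp1, Timp2, Mmp25, Adam8, Adam9, Adam11, Adam15, Adamts12 and Adamts14, which had not passed, were called higher, Adamts2, Adamts5 and Adamtsl3 were no longer called lower, and Adam10 was called higher. With limma on TPM 10 calls differed, with either pseudocount, and with upper quartile factors 5 calls differed. The log2 fold changes of 8 genes changed sign with library sizes alone, those of 7 with limma on TPM and those of 4 with upper quartile factors. In the TMM fit each of these lay between -0.23 and 0.

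The upstream sequences of the most lowered and most raised genes are shown because these 2 genes carry the largest changes of the set. Each is the 250 bases before the start of transcription, 5′ to 3′, from RefSeq on GRCm38.p6, with any GC box (GGGCGG, on either strand) or nuclear receptor half-site (AGGTCA, on either strand) in capitals. Timp4 starts on the minus strand of chromosome 6, and its window is chr6:115252206-115252455. Adamts20 starts on the minus strand of chromosome 15, and its window is chr15:94404351-94404600, at an annotated start inside the interval of the gene given below.
Timp4: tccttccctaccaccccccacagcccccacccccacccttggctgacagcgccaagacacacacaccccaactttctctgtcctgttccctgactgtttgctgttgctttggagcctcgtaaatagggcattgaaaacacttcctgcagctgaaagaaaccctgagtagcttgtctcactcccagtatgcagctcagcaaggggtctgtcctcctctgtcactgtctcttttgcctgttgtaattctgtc
Adamts20: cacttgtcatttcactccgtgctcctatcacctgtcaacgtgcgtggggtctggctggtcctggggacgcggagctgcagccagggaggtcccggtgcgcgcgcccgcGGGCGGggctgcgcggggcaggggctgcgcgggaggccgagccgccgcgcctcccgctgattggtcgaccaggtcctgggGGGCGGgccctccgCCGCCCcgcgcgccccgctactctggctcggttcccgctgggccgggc
The windows differ in composition: the Timp4 window has 53.6% G and C and none of either motif, while the Adamts20 window has 76.4% G and C and 3 GC boxes. The median over all windows was 52.4%. RefSeq windows were found for 45 of the 73 genes. Among 36 windows of 33 tested genes, GGGCGG occurred in 23 (63.9%), against 32.7% of the 32851 windows of all genes, which include non-coding genes. AGGTCA occurred in 3 of the 36 (8.33%), against 14.02% of all windows. GGGCGG was found in 6 of 10 windows of higher genes and 10 of 14 windows of lower genes, and no test was made of the difference. Overlapping matches were each counted, and a match is no evidence of a bound factor.

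A few genes supplied most of the RNA of this set. In the euthyroid libraries Mmp2 had 1051 ± 18.98 TPM, Timp2 739 ± 18.9, Mmp14 572 ± 12.6 and Timp3 273 ± 13.7 TPM (SD, n = 5 each), and these 4 made up 67.2% ± 0.353 of the summed TPM of the 73 genes. Their share was 70.2% ± 0.655 in the hypothyroid libraries, where Mmp2 had 1411 ± 48.7, Timp2 908 ± 82.6, Timp3 433 ± 33.1 and Mmp14 414 ± 20.7 TPM. Mmp14 and Timp3 thus changed places in the order. Bmp1 followed in both groups at 211 and 284 TPM, and Adam10 after it at 144 and 152 TPM. Mmp19 moved down from place 18 to place 45 and Timp4 from 23 to 50, the most of the 73. In the euthyroid libraries 23 of the 73 genes had a mean of at least 10 TPM, and in the hypothyroid libraries 27.

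**Figure D2:**
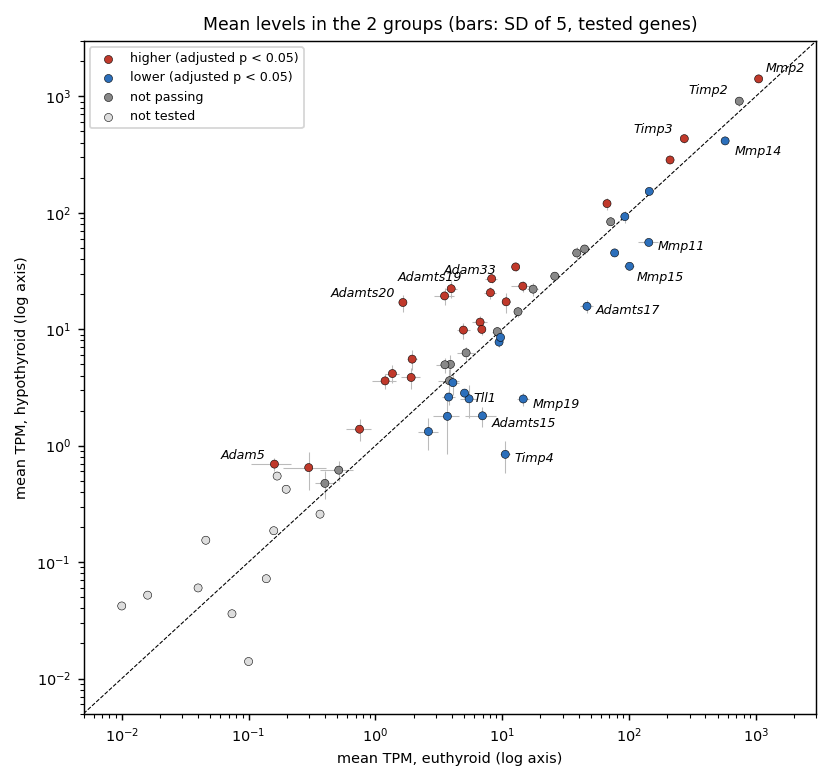
Mean TPM of each gene in the euthyroid (horizontal) and hypothyroid (vertical) libraries on log axes, with bars of 1 SD (n = 5 each) for tested genes; the dashed line marks equal levels, and genes at 0 in either group are left out. Mmp2, Timp2, Mmp14 and Timp3 lie at the top right, and among the tested genes Timp4 and Mmp19 lie farthest below the line; colours are calls from TMM-scaled counts, so a gene called lower can lie slightly above the line, as Adam10 does at 144 and 152 TPM.

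Among the secreted and membrane metalloproteases, the abundant gelatinase gene Mmp2 rose slightly while its activator fell. Mmp2 encodes gelatinase A, which cleaves denatured collagen and type IV collagen, and lies on chromosome 8 from 92827290 to 92853421 on GRCm38.p6. It had 1429, 1357, 1433, 1406 and 1438 CPM in the euthyroid and 1559, 1678, 1706, 1540 and 1625 CPM in the hypothyroid libraries. Every hypothyroid library lay above every euthyroid one, but the change was small (log2 fold change 0.20, SE 0.05, edgeR adjusted p = 0.00126). Mmp14, the membrane-type protease that opens the Mmp2 precursor at the cell surface with Timp2 as a bridge, had 966, 903, 979, 977 and 943 CPM in the euthyroid and 606, 560, 611, 562 and 610 CPM in the hypothyroid libraries. The groups were far apart relative to their spread, and Mmp14 fell 1.62-fold (a log2 fold change of -0.69, SE 0.05, edgeR adjusted p = 3.47e-09). Their ratio within a library does not depend on scaling between libraries: Mmp14 had 0.544 ± 0.0121 of the TPM of Mmp2 in the euthyroid and 0.294 ± 0.0166 in the hypothyroid libraries (SD, n = 5 each). That ratio ran from 0.529 to 0.560 in one group and from 0.269 to 0.314 in the other. Ratios are given as descriptions, since their pairs were chosen with values known.

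The other membrane-type genes split. Mmp15, which encodes MT2-MMP, fell most, from 211, 190, 170, 197 and 189 CPM to 57.5, 54.5, 54.9, 55.1 and 59.2 CPM. The hypothyroid libraries were all at about the same level, well below the euthyroid ones (3.40-fold lower, a log2 fold change of -1.77, SE 0.06, edgeR adjusted p = 8.46e-13). Mmp24, known from neural tissue, fell 1.43-fold from 17.9 ± 1.29 to 12.5 ± 1.08 CPM. Mmp16, which encodes MT3-MMP, rose 1.77-fold from 17.0 ± 1.59 to 30.2 ± 3.81 CPM. The genes of the lipid-anchored members Mmp17 and Mmp25 did not pass, with log2 fold changes of 0.03 and 0.04.

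Mmp19 and Mmp11 fell as well. Mmp19 encodes a secreted protease and lies on chromosome 10 from 128790910 to 128800827. It had 20.2, 17.5, 24.0, 21.9 and 23.7 CPM in euthyroid against 2.99, 2.47, 3.42, 3.46 and 3.20 CPM in hypothyroid libraries. The lowest euthyroid library stood well above the highest hypothyroid one (6.88-fold lower, a log2 fold change of -2.78, SE 0.12, edgeR adjusted p = 1.85e-11). An exon of Mmp19 shares 789 bases with Tmem198b on the other strand, which was also lower (69.9 against 38.9 CPM), and without strand their reads may be mixed. Mmp11 encodes stromelysin-3, which furin activates inside the cell, and went from 173, 144, 119, 122 and 130 CPM to 48.3, 44.6, 45.6, 45.6 and 46.1 CPM. Euthyroid replicate 1 was the highest, and the groups did not overlap (2.99-fold lower, SE 0.09 on the log2 scale, edgeR adjusted p = 1.76e-09). Its exons share 155 bases with Chchd10 on the other strand, which went from 114.6 to 23.7 CPM, so part of the Mmp11 count may be reads of that gene, and the part was not tested.

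Of the collagenases, Mmp13 fell and Mmp8 did not pass. Mmp13, the collagenase of hypertrophic cartilage and bone, was low throughout, with 5.51, 3.56, 3.22, 4.17 and 5.10 CPM against 2.06, 0.999, 2.41, 0.646 and 2.78 CPM. The groups were separate but close (log2 fold change -1.28, SE 0.31, edgeR adjusted p = 0.0026). Bone markers were lower in the same libraries, 8 of 8 tested, with summed levels of 1526 to 2484 TPM in euthyroid and 31.1 to 57.9 TPM in hypothyroid libraries, Bglap2 having 0 counts in the latter. Among all tested genes 34.1% were called lower. Osteoclast markers were lower in 4 of 4 tested of 7, with summed levels of 222 to 301 against 120 to 163 TPM. The values of Atp6v0d2 and Oscar among them overlapped. Of 7 tested chondrocyte markers 5 were lower and 1 higher (14141 to 14676 against 6805 to 7613 TPM). The part of these cells in the change of Mmp13 was not tested. Mmp8, the collagenase of neutrophils, had 4.10 ± 0.853 and 3.30 ± 0.857 CPM (edgeR adjusted p = 0.159), and of 6 tested neutrophil markers 1 was lower and 5 did not pass (summed levels of 171 to 359 against 152 to 290 TPM). Mmp23 rose 1.49-fold from 4.38 ± 0.322 to 6.54 ± 0.620 CPM. Mmp28, the epilysin gene, did not pass at 20.5 ± 0.969 and 18.6 ± 1.73 CPM (edgeR adjusted p = 0.0904), except without hypothyroid replicate 4 (0.0490). The 7 remaining Mmp genes (3, 7, 10, 12, 20, 21 and 27) had between 1 and 9 counts over all 10 libraries and were not tested.

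Of the 4 inhibitor genes 1 rose, 1 fell and 2 did not pass, where 71.8% of all tested genes passed in either direction. Timp4, whose product has the narrowest tissue range of these inhibitors, had 12.6, 12.1, 15.2, 15.2 and 13.0 CPM in the euthyroid and 0.702, 1.33, 1.16, 0.692 and 0.754 CPM in the hypothyroid libraries. No hypothyroid library reached 2 CPM, and the change of 14.6-fold was the largest of the 54 genes (log2 fold change -3.87, SE 0.17, edgeR adjusted p = 2.39e-11). Timp4 lies on chromosome 6 from 115244444 to 115252205, within Syn2 on the other strand, with which it shares 90 exonic bases. Syn2 was also lower, at 4.50 and 2.45 CPM. Timp3, whose product stays bound to the matrix and also blocks ADAM17 and aggrecan-cleaving Adamts enzymes, had 568, 561, 526, 559 and 589 CPM against 798, 693, 840, 708 and 769 CPM. It rose 1.36-fold with no overlap (log2 fold change 0.44, SE 0.06, edgeR adjusted p = 5.18e-06), and Syn3, in which it lies on the other strand with 1733 shared exonic bases, had 7.29 and 8.45 CPM. Timp2 had 1205, 1144, 1173, 1171 and 1174 CPM in the euthyroid and 1084, 1399, 1232, 1181 and 1265 CPM in the hypothyroid libraries. These values overlapped (log2 fold change 0.07, edgeR adjusted p = 0.298), and with library sizes alone Timp2 was called higher (0.34, edgeR adjusted p = 6.004e-05). Upper quartile factors also gave a higher call for Timp2 (0.18, edgeR adjusted p = 0.0103). So did limma on TPM with a pseudocount of 0.1 (0.29, adjusted p = 0.000387) or 1 (0.29, adjusted p = 0.000403). Timp1 had 6.53 ± 0.683 and 7.02 ± 0.976 CPM (edgeR adjusted p = 0.428) and was called higher with library sizes alone (0.00822). With limma on TPM and a pseudocount of 0.1 Timp1 was called higher too (adjusted p = 0.00511). Relative to Mmp2, Timp2 had a ratio of 0.704 ± 0.0109 in euthyroid and 0.643 ± 0.0453 in hypothyroid libraries, with ranges that overlapped.

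**Figure D3:**
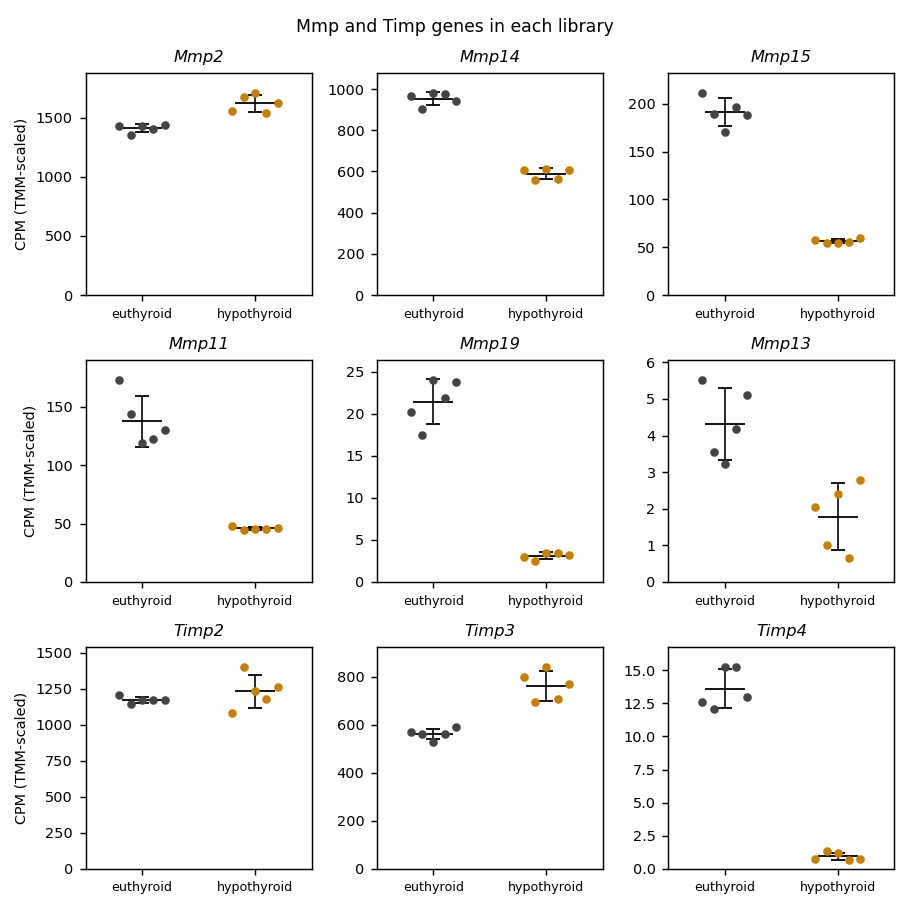
CPM of 6 Mmp and 3 Timp genes in each of the 5 euthyroid (dark) and 5 hypothyroid (orange) libraries; bars are mean and SD, and each axis starts at 0 with its own range. Mmp14, Mmp15, Mmp11, Mmp19 and Timp4 are lower in every hypothyroid library, Mmp2 and Timp3 higher, and the Timp2 values overlap.

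Of 8 tested ADAM genes with protease activity, 1 rose, 3 fell and 4 did not pass. Among all tested genes 71.8% passed in either direction. Adam17, which releases TNF and EGF receptor ligands from cells, fell 1.99-fold, from 151, 141, 158, 149 and 148 CPM to 74.4, 71.0, 76.1, 74.2 and 78.7 CPM. Replicates lay close together in each group (log2 fold change -0.996, SE 0.04, edgeR adjusted p = 3.17e-11). Its exons share 311 bases with Iah1 on the other strand, at 20.5 and 17.0 CPM. The ratio of the inhibitor Timp3 to Adam17 went from 3.55 ± 0.256 to 9.59 ± 0.646 in TPM, with ranges of 3.13 to 3.77 and 8.99 to 10.4. Adam10, which cleaves Notch receptors, was slightly lower at 290 ± 12.1 and 261 ± 13.6 CPM (log2 fold change -0.15, edgeR adjusted p = 0.0102), but turned to 0.11 (edgeR adjusted p = 0.0322) with library sizes alone. Neither upper quartile factors (edgeR adjusted p = 0.462) nor limma on TPM (adjusted p = 0.1405 with a pseudocount of 0.1) gave a call for Adam10. Adam12, a gene of mesenchymal and muscle precursors, fell 1.70-fold from 12.8 ± 1.59 to 7.56 ± 1.07 CPM.

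Adam33, a gene of mesenchymal cells known from the airway, was the one of these that rose. It had 4.97, 5.98, 5.92, 4.79 and 6.54 CPM in the euthyroid and 26.5, 38.1, 26.3, 25.8 and 24.8 CPM in the hypothyroid libraries. Hypothyroid replicate 2 stood above the others, and no values overlapped (5.01-fold higher, a log2 fold change of 2.32, SE 0.13, edgeR adjusted p = 8.8e-10). The log2 fold changes of Adam8, Adam9, Adam15 and Adam19 were 0.19, -0.10, -0.00 and -0.18 and missed the threshold. Adam19 was close to the limit (edgeR adjusted p = 0.0504) and passed without euthyroid replicate 2 (0.0217) or 3 (0.0251) or hypothyroid replicate 1 (0.04095). It was also called lower with the replicate block (-0.18, edgeR adjusted p = 0.0324) and by DESeq2 (-0.21, adjusted p = 0.0301). Adam9 passed without euthyroid replicate 1 (0.0460) and was called higher with library sizes alone (edgeR adjusted p = 0.0253). Adam8 was called higher with library sizes alone (edgeR adjusted p = 0.00392) and upper quartile factors (0.0377). Adam15 was called higher with library sizes alone (edgeR adjusted p = 0.000536). Limma on TPM with a pseudocount of 0.1 also gave higher calls for Adam8 (adjusted p = 0.0389) and Adam15 (0.0018). Adam28 was not tested, as it had 28 counts over all euthyroid libraries and 88 in the hypothyroid ones.

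The ADAMs of nervous tissue, which have no protease activity and bind LGI proteins or other partners, gave 2 higher calls of 3. Among all tested genes 37.7% were called higher. Adam23 rose 2.88-fold, from 2.86, 3.56, 2.93, 2.54 and 2.83 CPM to 10.8, 7.46, 8.44, 9.14 and 6.6 CPM. All hypothyroid values were above the euthyroid ones (log2 fold change 1.53, SE 0.15, edgeR adjusted p = 2.14e-07). Adam22 rose 1.23-fold to 34.3 ± 3.14 from 27.9 ± 1.64 CPM, and its values overlapped. Adam11 did not pass at 56.8 ± 4.20 and 53.6 ± 2.03 CPM, but with library sizes alone turned to a log2 fold change of 0.18 (edgeR adjusted p = 0.00704). Of 11 genes known from testis and epididymis, 9 were too low to be tested, with 1 to 72 counts over the 10 libraries. Adam3 did not pass at 0.610 and 0.631 CPM, and Adam5 rose at the edge of detection, from a sum of 16 counts to one of 71 counts (edgeR adjusted p = 4.06e-05).

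The Adamts genes that act on proteoglycans all passed the test, 5 higher and 2 lower of 7, where 71.8% of all tested genes passed in either direction. Adamts20, which cleaves versican and whose loss gives belted mice with an unpigmented band, rose most of all 54 genes. Its levels were 4.86, 4.74, 5.42, 5.13 and 5.38 CPM in the euthyroid and 47.7, 52.4, 41.8, 33.1 and 47.9 CPM in the hypothyroid libraries. The lowest hypothyroid library, replicate 4, was still far above the euthyroid range (8.73-fold higher, a log2 fold change of 3.13, SE 0.12, edgeR adjusted p = 1.38e-11). Adamts20 lies on chromosome 15 from 94268314 to 94432074. Melanocyte markers were higher in the same libraries, 6 of 6 tested, where 37.7% of all tested genes were higher. Their summed levels were 413 to 647 against 1041 to 1993 TPM, and their part in the change of Adamts20 was not tested. Adamts9, a versican-cleaving relative with which Adamts20 shares its domain layout, rose 2.18-fold, from 32.3, 30.0, 26.7, 26.5 and 28.0 CPM to 71.5, 56.5, 57.2, 62.0 and 65.6 CPM (log2 fold change 1.123, SE 0.07, edgeR adjusted p = 2.9e-09). The ratio of Adamts20 to Adamts9 was 0.206 ± 0.0250 TPM in euthyroid and 0.831 ± 0.168 in hypothyroid libraries, so the former approached the level of the latter.

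Smaller increases were seen in Adamts1 (1.38-fold, 31.2 ± 6.10 to 43.0 ± 4.28 CPM) and the aggrecanase gene Adamts4 (1.72-fold, 5.30 ± 0.794 to 9.14 ± 1.79 CPM). Adamts8, at low levels, rose 1.61-fold with overlapping values (1.49 ± 0.314 to 2.40 ± 0.538 CPM). Adamts5, the main aggrecanase gene of mouse cartilage, fell 1.37-fold with overlapping values (14.6 ± 1.58 to 10.6 ± 2.17 CPM, edgeR adjusted p = 0.00435). It was not called with library sizes alone (log2 fold change -0.19) or limma on TPM (adjusted p = 0.161 with a pseudocount of 0.1). Adamts15 fell 4.47-fold. It had 21.1, 20.1, 12.7, 15.2 and 11.9 CPM in the euthyroid and 4.07, 2.76, 3.09, 4.15 and 4.01 CPM in the hypothyroid libraries. The euthyroid libraries were spread widely, yet each was above every hypothyroid one (log2 fold change -2.16, SE 0.18, edgeR adjusted p = 1.14e-07).

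Of the procollagen N-proteinases, which remove the N-terminal propeptide of fibrillar collagens, Adamts3 rose, the abundant Adamts2 was slightly lower and Adamts14 did not pass. Adamts3 had 5.94, 6.95, 6.66, 6.65 and 5.93 CPM against 16.4, 18.9, 12.6, 12.7 and 16.9 CPM. No values overlapped (2.41-fold higher, SE 0.12 on the log2 scale, edgeR adjusted p = 1.74e-07). Adamts2 was slightly lower, at 282 ± 12.9 and 240 ± 26.1 CPM (log2 fold change -0.23, edgeR adjusted p = 0.00543), and with library sizes alone the value was 0.03 (edgeR adjusted p = 0.674). Nor was it called with upper quartile factors (edgeR adjusted p = 0.0955) or limma on TPM (adjusted p = 0.942 with a pseudocount of 0.1). Per length Adamts2 stayed the main one of the pair: Adamts3 had 0.0211 ± 0.00223 of its TPM in euthyroid and 0.0599 ± 0.0109 in hypothyroid libraries. Adamts14 did not pass (log2 fold change 0.26, edgeR adjusted p = 0.0630), but passed without euthyroid replicate 5 (0.0360) or hypothyroid replicate 2 (0.0351). It was also called higher with library sizes alone (edgeR adjusted p = 0.00148), upper quartile factors (0.0135) and a stricter count filter (0.0496). The same held for limma on TPM (adjusted p = 0.00606 with a pseudocount of 0.1).

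Among the other Adamts genes 5 rose and Adamts17 fell, where 71.8% of all tested genes passed in either direction. Adamts19 had 7.56, 7.06, 5.47, 7.16 and 4.99 CPM in the euthyroid and 36.6, 26.0, 35.7, 24.5 and 28.6 CPM in the hypothyroid libraries, with all of the latter higher (4.69-fold, 2.23 with SE 0.14 on the log2 scale, edgeR adjusted p = 7.79e-09). Adamts7, whose product cleaves cartilage oligomeric matrix protein, went from 19.9, 16.6, 18.2, 14.9 and 18.4 CPM to 51.8, 45.8, 50.8, 42.9 and 53.5 CPM. It rose 2.78-fold (SE 0.08 on the log2 scale, edgeR adjusted p = 3.99e-10), while Adamts12, which acts on the same protein, had 147 ± 13.1 and 147 ± 16.9 CPM and did not pass (edgeR adjusted p = 0.974). With library sizes alone Adamts12 was called higher (log2 fold change 0.26, edgeR adjusted p = 0.00648), and so it was with limma on TPM and a pseudocount of 0.1 (0.22, adjusted p = 0.0286). Exons of Adamts7 share 122 bases with Tbc1d2b on the other strand, at 64.2 and 80.5 CPM.

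Adamts10 and Adamts6 encode enzymes that act at fibrillin microfibrils. Adamts10 rose 1.54-fold, from 113, 111, 109, 113 and 124 CPM to 177, 212, 164, 167 and 160 CPM, without overlap (edgeR adjusted p = 1.42e-06). Adamts6 rose 2.49-fold from 3.19 ± 0.785 to 7.96 ± 1.07 CPM. Adamts16, at low levels, rose 1.86-fold with overlapping values, from 0.637 ± 0.231 to 1.19 ± 0.419 CPM. Adamts17, mutated in a short stature and lens disorder that is also linked to microfibrils, went the other way, from 140, 121, 106, 132 and 121 CPM to 38.0, 36.4, 37.7, 28.1 and 39.1 CPM. The hypothyroid libraries were all below the euthyroid range (3.46-fold lower, a log2 fold change of -1.79, SE 0.09, edgeR adjusted p = 7.49e-10). Adamts13, which cleaves von Willebrand factor, and Adamts18 had 29 and 46 counts over all libraries and were not tested.

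**Figure D4:**
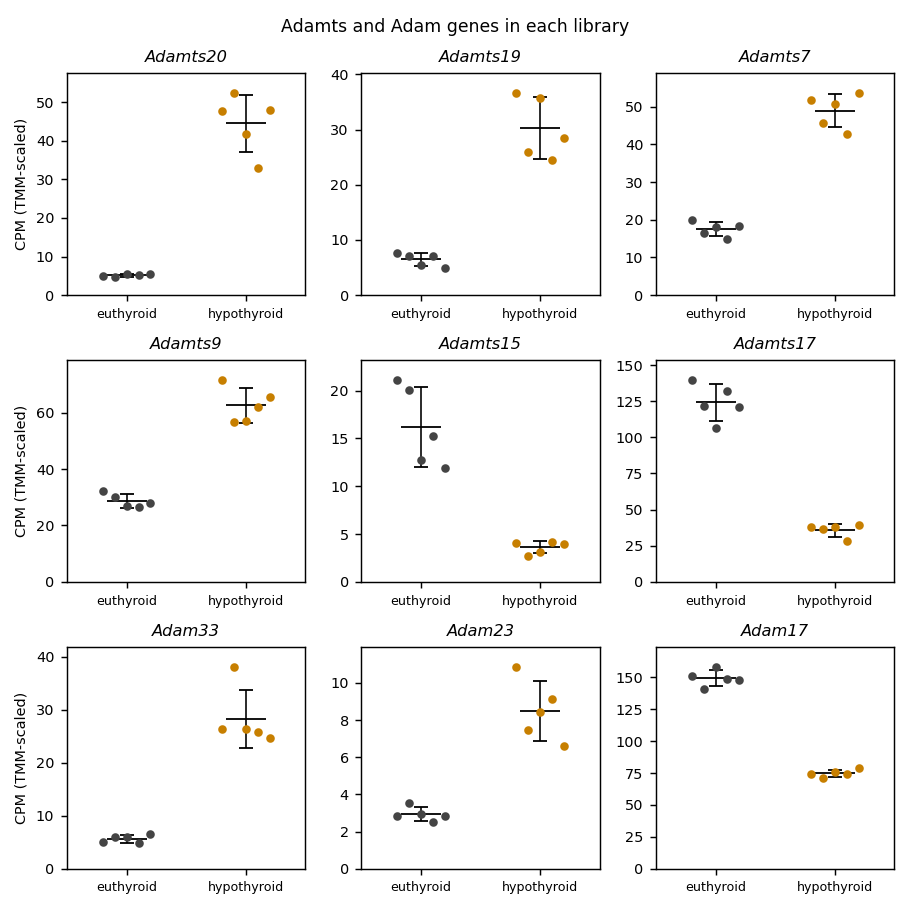
CPM of 6 Adamts and 3 Adam genes in each of the 5 euthyroid (dark) and 5 hypothyroid (orange) libraries; bars are mean and SD, and each axis starts at 0 with its own range. Adamts20, Adamts19, Adamts7, Adamts9, Adam33 and Adam23 are higher in every hypothyroid library, and Adamts15, Adamts17 and Adam17 lower.

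All 5 Adamts-like genes, whose products lack the protease domain and bind matrix, passed the test, 2 higher and 3 lower, again beside 71.8% of all tested genes. Adamtsl1 rose 2.31-fold, from 41.9, 39.8, 46.7, 47.4 and 41.5 CPM to 89.1, 106, 99.8, 106 and 102 CPM (SE 0.06 on the log2 scale, edgeR adjusted p = 1.89e-10). Adamtsl4, a fibrillin-binding gene of the lens zonule, rose 1.37-fold. Adamtsl2, whose product binds the latent TGF-beta binding protein Ltbp1, fell 2.56-fold from 8.65 ± 1.35 to 3.37 ± 1.09 CPM. Adamtsl5 fell 2.33-fold from 3.50 ± 0.675 to 1.497 ± 0.473 CPM. Adamtsl3 fell 1.34-fold, but was not called with library sizes alone (log2 fold change -0.15) or limma on TPM (adjusted p = 0.0683 with a pseudocount of 0.1).

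The tolloid genes diverged. Bmp1, which encodes the main procollagen C-proteinase, had 329, 323, 359, 343 and 353 CPM in the euthyroid and 387, 400, 408, 379 and 389 CPM in the hypothyroid libraries. The increase was small and without overlap (1.15-fold, a log2 fold change of 0.20, SE 0.04, edgeR adjusted p = 0.000706). Tll1, tolloid-like 1, went from 12.1, 10.5, 12.2, 12.5 and 11.1 CPM to 5.94, 5.28, 5.64, 4.85 and 5.98 CPM, a fall of 2.11-fold (SE 0.09 on the log2 scale, edgeR adjusted p = 7.87e-08). Their relative Tll2, which the symbol rule does not take in, had 0.0110 ± 0.00364 of the TPM of Bmp1 in euthyroid and 0.299 ± 0.0165 in hypothyroid libraries. Relative to Bmp1, Tll1 went from 0.0239 ± 0.00177 to 0.00995 ± 0.000775 (SD, n = 5 each), so the order of Tll1 and Tll2 was reversed.

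Genes that act with these enzymes also went both ways. Of 27 regulators and cofactors 11 were higher, 11 lower and 5 did not pass, with a median of -0.03 on the log2 scale. Among all genes 37.7% were higher and 34.1% lower, so these counts lay near the background. Pcsk5, a convertase that opens precursor proteins, rose 4.10-fold (24.0 ± 1.27 against 98.6 ± 6.73 CPM, edgeR adjusted p = 3.63e-13). Its relative Furin, which activates Mmp14, Adam17 and Mmp11, fell 1.91-fold from 435 ± 10.8 to 228 ± 14.9 CPM. Pcolce2, an enhancer of procollagen C-proteinases, fell 5.71-fold from 75.7 ± 7.65 to 13.2 ± 0.807 CPM, while Pcolce rose 1.121-fold with overlapping values. Reck, a membrane inhibitor of Mmp enzymes, rose 1.13-fold, also with overlap. Rhbdf1, which carries Adam17 to the cell surface, rose 1.69-fold from 53.1 ± 4.16 to 89.7 ± 6.12 CPM.

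Of 20 matrix genes whose products are cut by these enzymes, 19 were tested, with 9 higher, 7 lower and 3 not passing (median -0.07 on the log2 scale). Of all tested genes 37.7% were higher and 34.1% lower, and no test was made of the difference. Bgn, the biglycan gene, had a log2 fold change of 1.43 and Col2a1 one of -1.37. Brevican (Bcan), a proteoglycan best known from brain, had 735 ± 88.8 and 87.1 ± 14.2 CPM and fell 8.43-fold (edgeR adjusted p = 4.34e-10). Aggrecan (Acan) fell 10.3-fold from 195 ± 29.3 to 18.9 ± 4.81 CPM. Versican (Vcan), the main substrate of Adamts20 and Adamts9, rose 3.74-fold from 4.36 ± 0.915 to 16.3 ± 3.88 CPM, and Fbn2, a fibrillin gene, rose 2.59-fold. Col1a1 fell while its partner Col1a2 in type I collagen did not pass (edgeR adjusted p = 0.18), with log2 fold changes of -3.89 and -0.08.

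**Figure D5:**
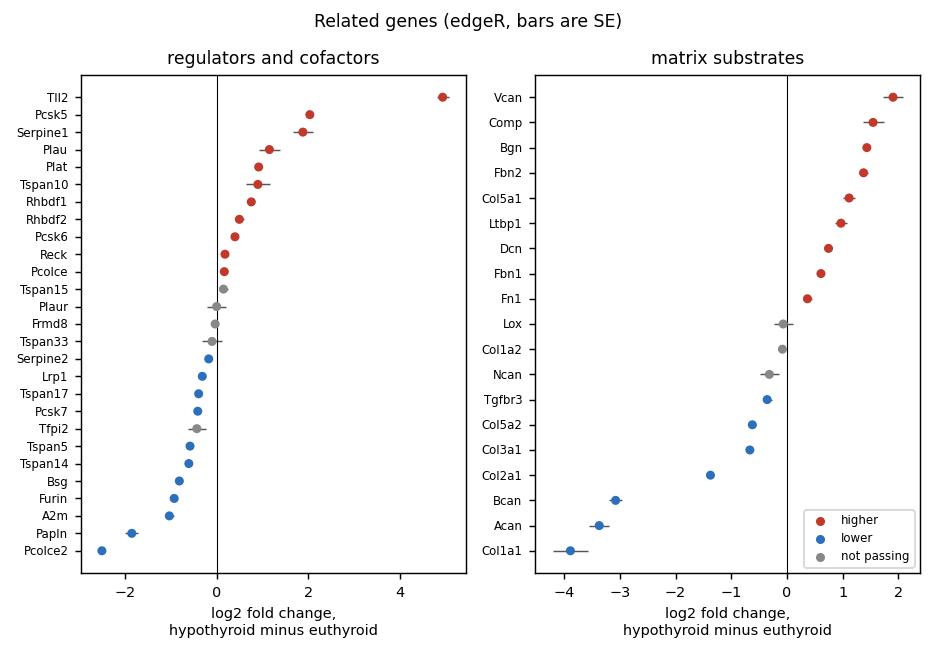
Log2 fold changes (hypothyroid minus euthyroid) with bars of 1 SE for 27 regulators and cofactors (left) and 19 tested matrix substrates (right); red marks genes called higher, blue lower, grey not passing. Tll2 and Pcsk5 lead the left panel and Pcolce2 ends it, and on the right Vcan lies at the top and Col1a1 at the bottom.

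Markers of other cells in the tissue moved as well. Among all tested genes 37.7% were called higher and 34.1% lower. Macrophage markers were higher in 8 of 8 tested genes (summed levels of 287 to 316 against 513 to 660 TPM). Endothelial markers were lower in 6 of 6, with summed levels that overlapped (646 to 758 against 568 to 656 TPM). Of these, Cdh5 and Pecam1 changed little (log2 fold changes of -0.23 and -0.26). Their mean TPM was 70.7 and 60.1 in euthyroid and 70.6 and 58.4 in hypothyroid libraries, and calls on such small changes are tied to the TMM scale. The other endothelial markers were lower in mean TPM too. Of 4 smooth muscle and pericyte markers 1 was higher and 2 lower (548 to 656 against 267 to 327 TPM), of 4 red cell markers 1 was lower (1033 to 1853 against 1355 to 1969 TPM), and of 4 tested hair cell markers all were lower (58.5 to 182 against 1.34 to 2 TPM). Of 3 inner ear genes Otos and Coch were lower. Their part in the changes of the protease and inhibitor genes was not tested.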

How the data were processed

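RNA was measured in 10 libraries, 5 per group. The submitters' processing notes name RSEM 1.2.12, HISAT2 2.0.4, Bowtie2 2.2.5 and the build GRCm38.p6, without roles or order. The deposited expected counts are reads divided among genes by the authors' estimate, and the deposited TPM values are levels per gene length, as named in the file headers; 28 other columns (FPKM, scaled counts, group means) were not used. Whether strand was kept is not given in the sources used here.

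Expected counts were rounded, filtered with filterByExpr (minimum count 10; 14862 genes left), scaled with TMM and tested two-sided with edgeR 4.0.16 (glmQLFit, robust; Benjamini-Hochberg adjusted p under 0.05; group as the only term) in R 4.3.3. Tests were checked on simulated data in which few genes changed, as many raised as lowered, so that check does not cover the choice of scaling. Alternatives were other scalings and filters, DESeq2 1.42.0, limma 3.58.1 on log2 TPM with pseudocounts of 0.1 and 1, a replicate block and each library left out; a Y-linked covariate and the counts by family and list were added after seeing the data. Figures were drawn with matplotlib 3.10.9 in Python 3.11.15. Within groups the mean chi-square per gene over pairs of libraries ran from 5.21 to 11.1 (euthyroid) and 6.27 to 15.1 (hypothyroid), where sampling alone gives about 1, so each library was counted as a separate one. The labels do not say that libraries came from separate animals, so p-values measure only the spread between these libraries.

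Members and lists were chosen with earlier results of these data known. The naming rule took 31 members: those called with at least 2-fold change and 5 CPM in either group, tested Timp genes, Bmp1, Tll1 and the member of highest TPM per role; and the 3 genes of smallest adjusted p in each list of related genes. It divides ADAMs by the zinc-binding motif, but protein sequences were not used here, so textbook classes took its place. Other genes were named after their values were seen. Gene positions are from RefSeq and exon overlaps from GENCODE M21, both on GRCm38.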

Additional observations from a re-analysis of the deposited data

Results flagged for a closer look

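In 5 of 108 groups of 5 libraries (54 genes in 2 groups), 1 library stood apart from the other 4 by Dixon's 95% limit; chance flags about 1 in 20 groups, so this number is near that of chance. Adam33 had 38.1 CPM in hypothyroid replicate 2 against 24.8 to 26.5 CPM in the others, and its log2 fold change was 2.196 without that library. Adam5 had 0.514 CPM in hypothyroid replicate 1 against 0.692 to 0.723 CPM, and 1.97 without it. Adamts10 had 124 CPM in euthyroid replicate 5 against 109 to 113 CPM, and 0.65 without it. Adamts17 had 28.1 CPM in hypothyroid replicate 4 against 36.4 to 39.1 CPM, and -1.71 without it. Timp1 had 8.68 CPM in hypothyroid replicate 3 against 6.08 to 6.83 CPM, and its log2 fold change, which did not pass, was 0.02 without it.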

How the results depend on the processing

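Scaling was the choice that moved results. With library sizes alone 8650 genes were higher and 2928 lower, with 2 Adamts genes lower and 9 Adam genes higher. Of the 54 members 8 changed sign. Those among the 37 genes tracked singly were Adam10, Adam11, Adamts2 and Mmp28 (0.115, 0.182, 0.0304 and 0.123), and Mmp28 was called in neither fit. The others were Adam9, Adam15, Adam19 and Adamts12. With limma on TPM, 3233 genes (pseudocount 0.1) or 3230 (pseudocount 1) and 2 Adamts genes were lower, and the same members but Adamts2 changed sign, Adam10 to 0.0781 and 0.0776. The cause was not tested. The members called under all settings run with all libraries ran from 20 to 32 higher and from 14 to 19 lower. Without 1 library at a time they ran from 22 to 24 higher and from 18 to 19 lower, and all genes called from 10294 to 10663. With the replicate block 10392 genes were called, with 22 members higher and 19 lower. Nothing in the labels says that replicate numbers pair the libraries, so the numbers were not taken as pairs. Correlations of deviations between same-numbered libraries ran from -0.0774 to 0.108. Only euthyroid replicate 1 and hypothyroid replicates 1 and 5 correlated best with the library of the same number. DESeq2, the replicate block, the Y-linked covariate and no filter changed no direction or call of the 37 genes tracked singly; of the 54 members, Adam19 was called lower with the block and by DESeq2. Depth limits the 19 untested genes, which had 1 to 116 counts in all.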
